A study of Mus musculus with 2 samples.

Results

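The insulin-like growth factor (IGF) genes described here are 10: the growth factors Igf1 and Igf2, the receptors Igf1r and Igf2r, the binding proteins Igfbp2, Igfbp3, Igfbp4, Igfbp5 and Igfbp6, and the docking protein Irs1. They were found by the gene name printed for each probe and were represented by 19 probes, out of 37074 gene names on the array, of which 18837 genes were tested. RNA came from the mDE6 line, odontogenic epithelial cells of the mouse, kept for 6 h with CHIR99021, an inhibitor of the kinase GSK-3 that activates the β-catenin pathway, or without it as a control. The labels call the control a DMSO control and give the dose as 5 mM, whereas the methods speak of untreated cells and of a micromolar dose. There was 1 Cy3-labelled Agilent array per condition, both on the same slide, so no difference has a replicate check, no statistical test could be made, and position on the slide and condition cannot be told apart.

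IGFs are small secreted hormones related to insulin. They act mainly through the receptor tyrosine kinase encoded by Igf1r, which phosphorylates docking proteins such as Irs1 and Irs2 and thereby engages PI3K, AKT and mTOR, whereas Igf2r takes up IGF2 and carries it to lysosomes without such signalling. The binding proteins hold IGFs outside the cell and are cleaved by proteases such as PAPP-A. GSK-3, the target of CHIR99021, is itself phosphorylated by AKT downstream of these receptors.

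On both arrays 49.8% and 48.3% of the 59305 spots were well above background, in control and CHIR99021 cells, respectively. Lef1, a gene commonly induced by β-catenin, had a signal of 239 in the control and 690.5 after CHIR99021, and was called higher by the criteria given below. Axin2, a negative regulator of the same pathway, was at least 1.66-fold higher, the control being not well above background, and was not called (Z-score 0.92). The other Axin2 probe, the other Lef1 probes and Sp5, from the same list of Wnt response genes, were at background on both arrays. Of the 8 genes on that list 7 were tested, and 3 were called higher, Lef1, Nkd1 and Rnf43, where 2.67% of all genes tested were. None of the 7 was called lower. Nkd1 gave 8.45 in the control, not well above background, and 587.8 after CHIR99021, at least 25.8-fold higher. Rnf43 gave 69.33 and 166.7, a ratio of 2.5. Of the 10 general epithelial markers, only Krt14 and Trp63 were well above background on both arrays, Krt18 and Cldn1 were so in the control only, and Krt8, Krt19, Cdh1, Epcam and Cldn4 were at background on both. Krt5, a basal keratin, was well above background only after CHIR99021, with 5.51 in the control and 165.2 after CHIR99021, at least 7.24-fold higher, and was called higher. All 10 mesenchymal markers were well above background, with a summed signal of 494000 in the control and 448000 after CHIR99021. The summed signal of the 5 epithelial markers tested was 2414 and 3142, of which Trp63 alone gave 2306 and 2896, and that of 3 immune markers 2928 and 3081, and the part of these values in the results below was not tested. A bulk signal cannot tell fewer cells of a type from less RNA per cell.

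Promoter sequence from RefSeq, 250 bases before to 50 bases after each gene's start in build GRCm38.p6, was found for all 10 members, in 14 promoters. The windows below are shown because they hold letters known to be bound by TCF/LEF factors, the partners of β-catenin, or by E-box factors, with the motif in capitals.
Igf1, plus strand, chr10:87860914-87860943: tgcgtggtggtCTTTGAAacatagctcagg
Irs1, minus strand, chr1:82291536-82291565: agaggctccgtCACGTGttttgctcctctg
Igf2r, minus strand, chr17:12769736-12769765: aacgaggacgtCACGTGagcaggaggcggg
Igfbp2, plus strand, chr1:72824327-72824356: gtgtgcacaagCACGTGccctcacgcaaga
The TCF/LEF letters CTTTGAA or CTTTGAT, searched on both strands, were in 1 of the 14 member promoters, that of Igf1, 186 bases before its start, and in 8.65% of all 32851 promoters. The E-box CACGTG, chosen after the promoters had been read, was in 3 of the 14, 115 bases before the start of Irs1, 48 and 7 bases before that of Igf2r and 142 bases before that of Igfbp2, and in 7.15% of all promoters. The FoxO letters GTAAACA were in none of the members' promoters and in 3.65% of all. A match in these letters is a description of the window and not a binding site.

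Signals were divided by the 75th percentile of their array, which was 479.6 in the control and 462.0 after CHIR99021, and the ratio is CHIR99021 over control. The Z-score sets a log2 ratio against the mean and SD of the 500 probes nearest in signal. To be called lower, a gene needed a ratio of 0.66 or less together with a Z-score of -2 or less. To be called higher, it needed 1.5 or more and 2 or more, respectively. No member was called lower, where 3.24% of all genes tested were, and 1 member, Irs1, was called higher, where 2.67% were. By the ratio alone, 1 member (Igfbp5) was lower against a background of 9.66%, and 1 (Irs1) was higher against 8.06%. With the median and MAD in the Z-score, Igfbp5 was called lower and Irs1 higher, against 5.4% and 4.77% of all genes tested. With 1 mean and SD over all probes no member was called in either direction, against 2.8% lower and 2.66% higher. Of the 10 members 5 had a log2 ratio below 0 and 5 above it, with a median of -0.07 beside 0.025 for all genes tested. The members' median depended on the processing: it was -0.248 with the mean over probes, -0.123 without scaling, -0.035 with median scaling and 0.027 with spike-in scaling, which moved the median of all genes to 0.122. The spot SD given with a log2 ratio is that of spike-in probes of like signal printed many times on each array, and covers spot-to-spot error only.

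**Figure D1:**
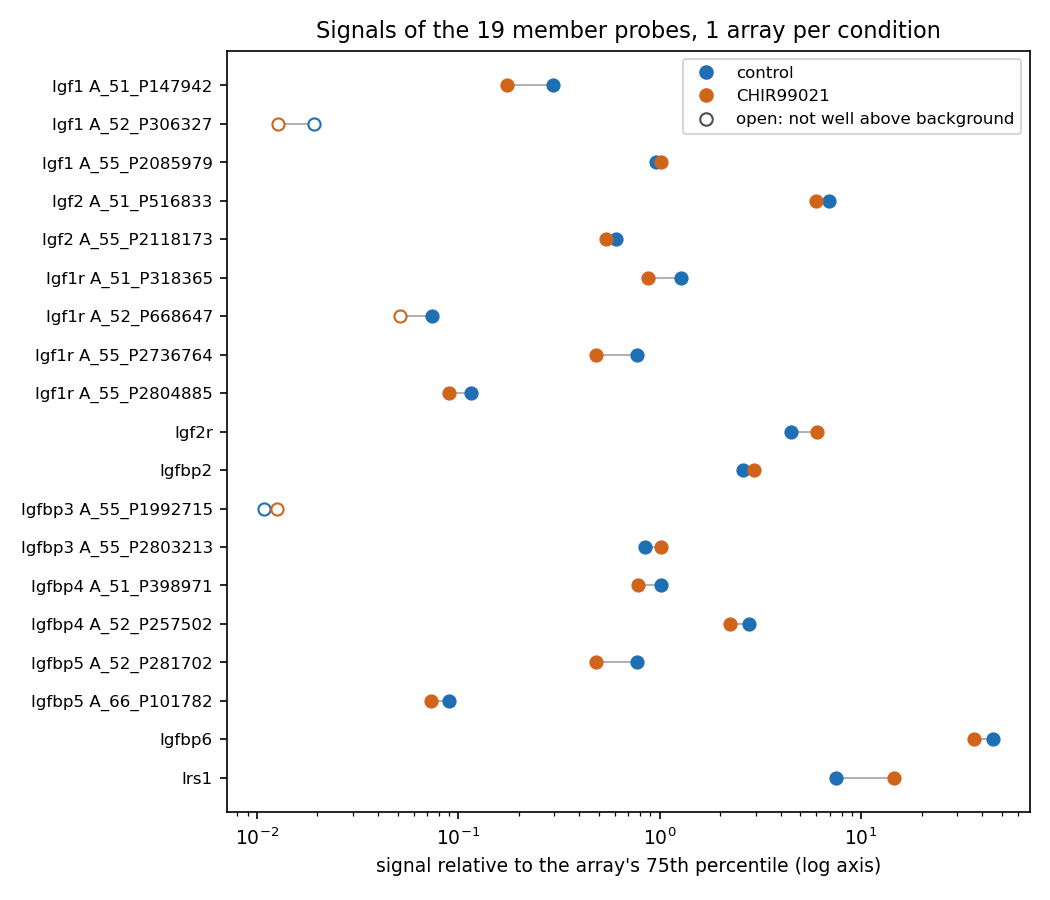
Signal of each of the 19 member probes divided by its array's 75th percentile, on a log axis, with blue points for the control array and orange points for the CHIR99021 array; open points were not well above background. The points for Irs1 lie apart with CHIR99021 on the right, and those of the 4 Igf1r probes all have CHIR99021 on the left.

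Irs1, which links the IGF1 and insulin receptors to PI3K, had the highest log2 ratio of the members. Its probe, at chr1:82229692-82229751 of build mm9, gave a signal of 3595 in the control and 6741 after CHIR99021. After scaling this was 1.95-fold, or 0.96 on the log2 scale with a spot SD of 0.033, and the Z-score was 2.93. Of all genes tested, 4.21% had a higher log2 ratio. The probe lay in row 128 of 384 and had no spot nearby that was measured on 1 array only and differed by more than 4-fold. Of the 1189 such spots on the array, 93.1% lay in rows past the middle. There lay also 5 member probes, the brighter Igf2 probe (row 319), the brighter Igfbp5 probe (row 244), the dimmer Igfbp4 probe (row 278) and both Igfbp3 probes (rows 201 and 216), and the part of their position in these values was not tested. The probes used for Krt5, Nkd1, Axin2 and, below, Igfbpl1 were themselves measured on 1 array only and differed by more than 4-fold in computed ratio. The rows of those probes were not analysed here.

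The other docking protein measured at a high signal went the opposite way. Irs2, not a member but one of 11 adaptors and docking proteins listed with the pathway, gave 2979 in the control and 1725 after CHIR99021, a ratio of 0.601 and a log2 ratio of -0.74 with a spot SD of 0.036. Its Z-score of -2.66 made it the only one of 48 tested genes in the pathway lists that was called lower, and none was called higher, where 3.24% and 2.67% of all genes tested were. Irs1 and Irs2 thus both met the criteria, in opposite directions, but neither did with a Z-score from 1 mean and SD over all probes.

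The receptors also differed in sign. All 4 probes for Igf1r, the signalling receptor, were lower after CHIR99021. The probe with the highest signal, at chr7:75371556-75371615, gave 613.6 in the control and 406.5 after CHIR99021, a ratio of 0.688 and a log2 ratio of -0.54 with a spot SD of 0.068 and a Z-score of -1.47. A neighbouring probe, at chr7:75371371-75371430, gave 372.2 and 223.2, a ratio of 0.623 and a Z-score of -1.72. Both ratios are larger than the spot error and both lie within 2 SD of the probes of like signal. The dim probe at chr7:75332796-75332855 gave 55.64 and 41.56, a log2 ratio of -0.37 with a spot SD of 0.219. The dimmest, at chr7:75332515-75332574, gave 35.46 in the control and was not well above background after CHIR99021, at least 1.30-fold lower. The 3 probes measured on both arrays spanned 0.32 in log2 ratio, a range that 28.3% of 5688 genes with several such probes reached. Igf2r, the clearance receptor for IGF2, was higher at its single probe, with 2161 in the control and 2794 after CHIR99021. That is a ratio of 1.34 and a log2 ratio of 0.42 with a spot SD of 0.035, and its Z-score of 1.25 did not meet the criteria. The files place this probe only in part, at chr17:12875253-12875263.

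**Figure D2:**
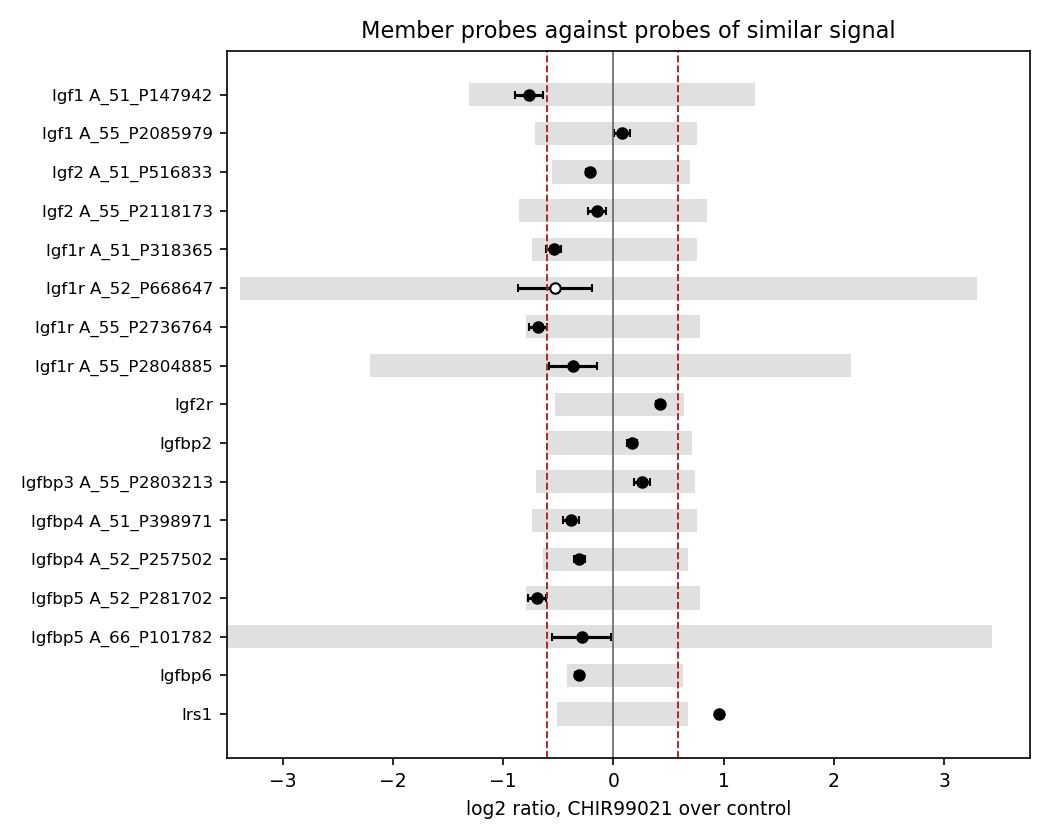
Log2 ratio of CHIR99021 over control for the 17 member probes tested, with the spot SD as a bar; the grey box is the mean ± 2 SD of the 500 probes nearest in signal, the dashed red lines are the ratio limits of 0.66 and 1.5, and an open point was well above background on 1 array only. Irs1 is the only probe outside its grey box, and 12 of the 17 points lie below 0.

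The 2 measured probes for Igf1, the growth factor of the somatotropic axis, did not give the same picture. The probe with the higher signal, at chr10:87378456-87378515, gave 459.3 in the control and 467.1 after CHIR99021, a log2 ratio of 0.08 with a spot SD of 0.07. The other, at chr10:87393516-87393575, gave 141.5 and 80.43, a ratio of 0.59 and a log2 ratio of -0.76 with a spot SD of 0.127. They differed by 0.84 in log2 ratio, with a spot SD of 0.145 for the difference, and 4.92% of the 5688 genes with several probes measured on both arrays had so wide a range. The median range was 0.17. At this dimmer signal the SD of probes of like signal was 0.65, so the Z-score of the second probe was only -1.16. There were 2 spots measured on 1 array only near the first probe and 1 near the second. The remaining Igf1 probe was at background on both arrays.

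Igf2, the growth factor best known from fetal growth and expressed from the paternal allele, was slightly lower at both probes. The brighter, at chr7:149837115-149837174, gave 3339 in the control and 2769 after CHIR99021, a log2 ratio of -0.22 with a spot SD of 0.034. The other gave 289.6 and 251.3, a log2 ratio of -0.15 with a spot SD of 0.082, and they differed from each other by less than the spot error. Neither met any criterion. The brighter probe had 4 nearby spots measured on 1 array only, the most of any member probe.

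Among the 5 binding proteins, 3 had log2 ratios below 0 and 2 above it, and none met both criteria. Igfbp5, which is abundant in connective tissue and bone, had the lowest log2 ratio of the members when the brightest probe stood for each gene; with the mean over probes it was -0.49, and Igf1r was lower at -0.53. Its brighter probe, at chr1:72904829-72904888, gave 371.8 in the control and 222.0 after CHIR99021, a ratio of 0.62 and a log2 ratio of -0.69 with a spot SD of 0.081. Its Z-score was -1.74, and 8.1% of all genes tested had a lower log2 ratio. The dim Igfbp5 probe gave 42.97 and 33.91, a log2 ratio of -0.29 with a spot SD of 0.266. Igfbp4, a substrate of PAPP-A, was lower at both probes, with 1327 and 1034 at the brighter, a log2 ratio of -0.31 with a spot SD of 0.048, and 486.8 and 359.5 at the other, a log2 ratio of -0.38 with a spot SD of 0.072. These differed by 0.08, within the spot error of the difference. Igfbp6, which prefers IGF2 as its ligand, gave 21750 in the control and 16880 after CHIR99021, a log2 ratio of -0.31 with a spot SD of 0.04 and a Z-score of -1.59.

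Igfbp2 and Igfbp3 were on the other side of 0. Igfbp2 gave 1249 in the control and 1354 after CHIR99021, a log2 ratio of 0.17 with a spot SD of 0.046, and had 3 nearby spots measured on 1 array only. Igfbp3, the main IGF carrier of the blood, gave 408 and 470.3 at chr11:7106193-7106252, a log2 ratio of 0.26 with a spot SD of 0.071 and a Z-score of 0.67. A second Igfbp3 probe was at background on both arrays.

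**Figure D3:**
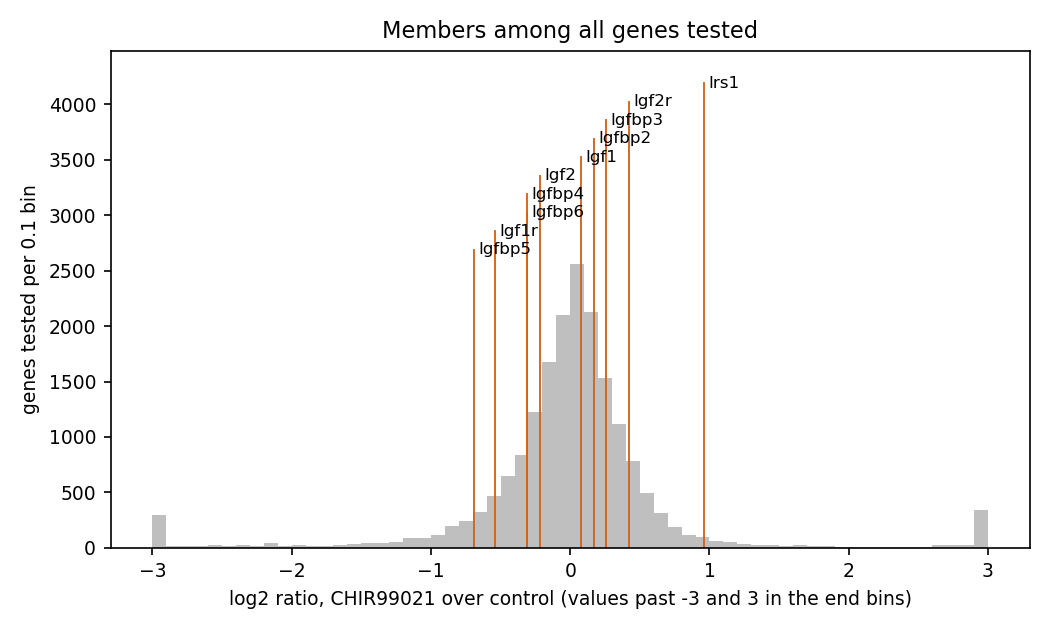
Histogram of the log2 ratio of CHIR99021 over control for the 18837 genes tested, in bins of 0.1, with a line at the value of each member; values past -3 and 3 are counted in the end bins. Irs1 stands in the upper tail, with 4.21% of genes above it, and the other members lie between -0.69 and 0.42.

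How far each value depended on the processing was also measured. Over 15 settings, Irs1 stayed between 0.89 and 1.06 in log2 ratio and Igf1r between -0.59 and -0.44, and Igf1 alone changed sign, to -0.34 with the mean over its probes.

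**Figure D4:**
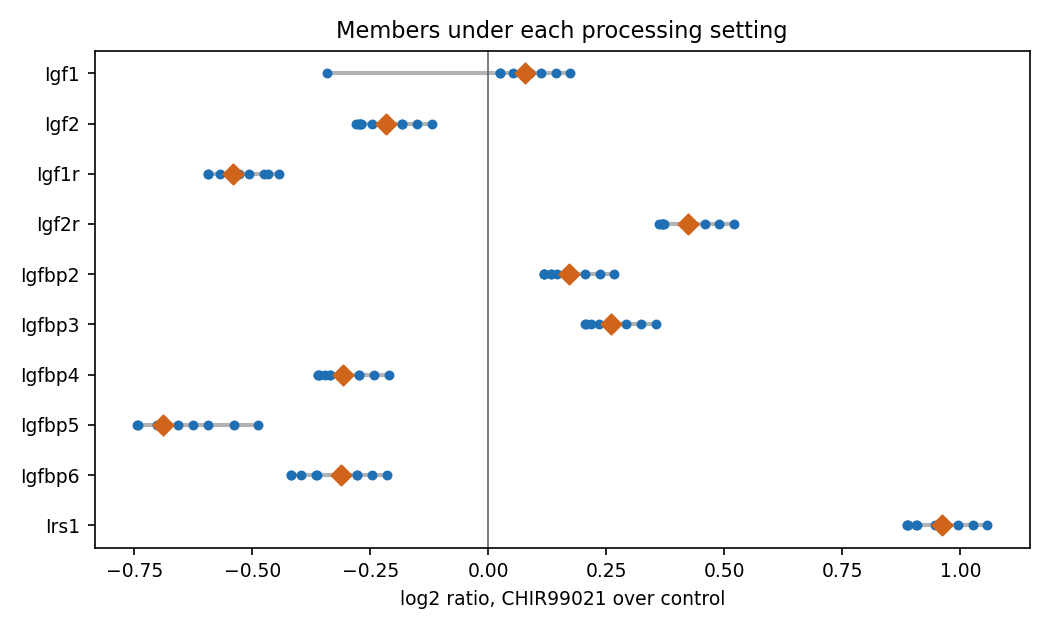
Log2 ratio of CHIR99021 over control for the 10 members, with the reported value as an orange diamond and the values under the other settings as blue points joined by a grey line. Of the 10 lines only that of Igf1 crosses 0.

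Of 62 other genes listed for the pathway, 60 were on the array and 48 were tested. Their median log2 ratio was -0.035, beside 0.025 for all genes tested. By the ratio alone 2 of the 48 were lower, Irs2 and Pik3cb, and 1 was higher, where 9.66% and 8.06% of all genes tested were. The higher gene, Igfbpl1, was well above background only after CHIR99021, with a signal of 34.9, and at least 1.53-fold higher. The spot SD at this probe was 0.635 in log2, and the other Igfbpl1 probe was at background on both arrays.

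Of the 9 carriers, proteases and their inhibitors 7 were tested and none met both criteria. The median log2 ratio was -0.15. Stc1, a stanniocalcin that inhibits PAPP-A, gave 256.1 in the control and 163.7 after CHIR99021, a log2 ratio of -0.59, and Pappa, the protease itself, gave 216.1 and 152.1, a log2 ratio of -0.45. Igfbp1 and Igfals were at background on both arrays.

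Of the insulin-related ligands and receptors only Insr and Insl6 were tested, and neither met the criteria. Insr, the insulin receptor, gave 48.36 in the control and was not well above background after CHIR99021, at least 1.51-fold lower. Insl6, a relaxin-like peptide, gave 547.4 and 365.8, a log2 ratio of -0.53. Ins1 and Ins2 were at background on both arrays, and no probe on the array carried the gene name Insl3.

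Of the 11 adaptors and docking proteins 10 were tested, with a median log2 ratio of -0.15. Beside Irs2, the largest log2 ratio on both arrays was that of Sh2b2, an SH2 adaptor, which gave 1047 and 1328, a log2 ratio of 0.40.

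Downstream, 24 of the 26 PI3K, AKT and mTOR genes were tested and none met both criteria, with a median log2 ratio of 0.07. Pik3cb, a catalytic PI3K subunit, had the lowest value, with 303.7 in the control and 159.7 after CHIR99021, a log2 ratio of -0.87 with a spot SD of 0.087. Its Z-score was -1.9, just inside the limit, and its second probe was at least 1.72-fold lower. Of the IGF mRNA-binding proteins and imprinted neighbours 5 of 8 on the array were tested, with log2 ratios at the brightest probe between -0.19 and 0.11. Those furthest from 0 were Igf2os, with 64.05 and 54.08, and Igf2bp2, with 2192 and 2272. H19, the imprinted neighbour of Igf2, was at background on both arrays.

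Probes of the same pathway gene did not always go together. Of 24 genes with several probes measured on both arrays, 8 had log2 ratios of both signs. The widest range was that of Igf2bp3, whose brightest probe was at 0.06 and another, with 96.84 in the control and 44.32 after CHIR99021, at -1.07. A dimmer Airn probe gave 169.3 and 265.3, a log2 ratio of 0.70, beside 0.10 at the brightest.

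**Figure D5:**
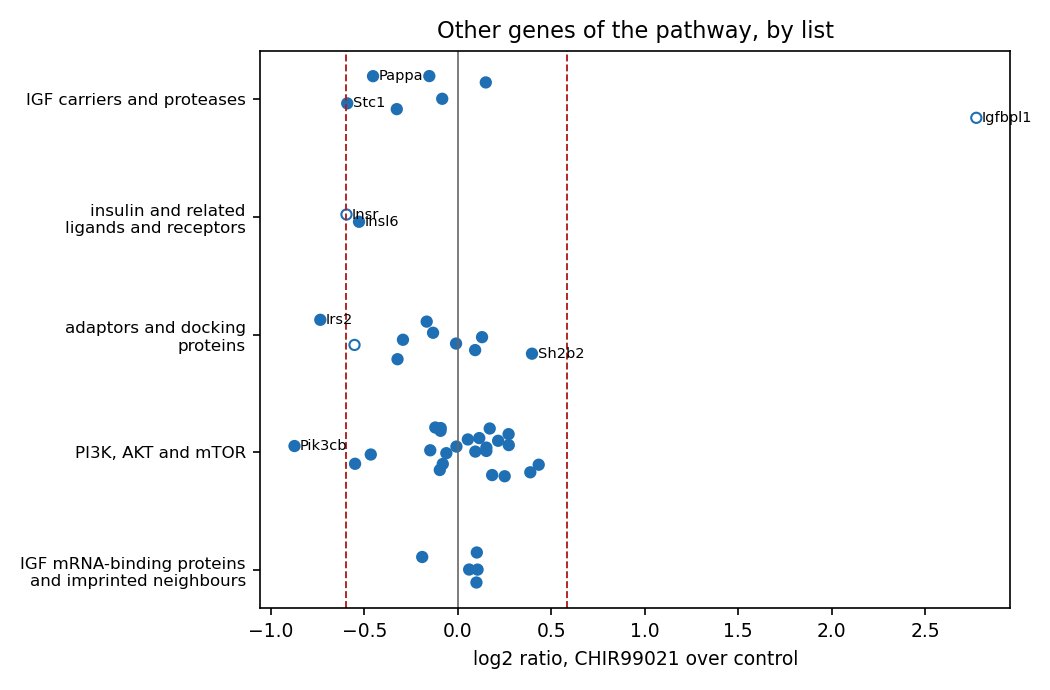
Log2 ratio of CHIR99021 over control for the 48 tested genes of the 5 pathway lists, 1 point per gene, with the ratio limits as dashed red lines. Of the genes given in the text, Igfbpl1, Stc1, Pappa, Insr, Insl6, Irs2, Pik3cb and Sh2b2 are labelled by name. Open points were well above background on 1 array only, so their place is the computed ratio and not a measured one, as for Igfbpl1; Irs2 and Pik3cb lie past the lower limit.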

How the data were processed

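Total RNA of mDE6 cells was labelled with Cy3 and hybridised to Agilent mouse arrays, 1 per condition. Spot intensity values, deposited by the authors after subtraction of background, had been quantified with Feature Extraction (10.7.1.1 per the file headers, 9.5.1.1 per the submitters' processing notes), without normalization between arrays. They also deposited a table of normalized intensity values, used as an alternative. Its sorted columns differed by at most 0.000321 in log2, each had a median of 20.4, and the log2 of its values correlated at 0.9999 with the log2 spot intensity, so its values were taken as linear; its normalization method is not given in the sources used here.

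Log2 intensities were taken minus the 75th percentile of their array without control spots and outlier spots (pandas 2.3.3 and numpy 2.4.6 in Python 3.11.15). A probe was tested if 1 array or both had it well above background, which left 28066, and the probe with the highest mean signal stood for its gene. The methods name the ratio limit of 0.66 and a Z-score limit but define no Z-score. That limit is printed without a minus sign and was read as -2 for lower genes; the mirror limits were used for higher genes. Where 1 array was not well above background, the fold was a bound against the higher of the probe's own signal there and that array's lowest signal well above background (23.68 in the control and 26.3 after CHIR99021). The spot SD was interpolated over the spike-in probes. The criteria were tested on simulated data, normexp (offset 50) and cyclic loess were run with limma 3.58.1 in R 4.3.3, and figures were drawn with matplotlib 3.10.9. The number of arrays limits the precision.

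The members, gene lists and tests were chosen with earlier results of these data known. Genes named are the 10 members at every probe, and in each pathway list those that met the criteria and the 2 with the largest absolute log2 ratio measured on both arrays. Others named were chosen after their values were seen, and some results under this rule are not reported here. Alternatives were other scalings, backgrounds, filters, probe rules and Z-scores. Coordinates of probes are those of the files in mm9; exon and UTR positions were not analysed here.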

Additional observations from a re-analysis of the deposited data

How the results depend on the processing

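Under the 15 settings, of which the filters and the floor left the ratios of these members as they were, all members kept the sign of their log2 ratio except Igf1, which was -0.34 with the mean over its probes. Irs1 lay between 0.89 and 1.06, Igf1r between -0.59 and -0.44 and Igfbp5 between -0.74 and -0.49. The members' median log2 ratio of -0.07 (-0.069) was -0.035 with median scaling, -0.123 without scaling, -0.114 with cyclic loess, -0.122 with the percentile taken over probes that both arrays had well above background and -0.248 with the mean over probes. It turned to 0.027 with spike-in scaling over all spike-in spots, where the median of all genes was 0.122 instead of 0.025, and was -0.004 with spike-in spots well above background only, a setting added after the former value had been seen. Scalings that add the same constant to every gene cannot move the members' median relative to that of all genes, which was -0.094. This difference was -0.27 with the mean over probes. Without a filter it was -0.251, the median of all 37074 genes being 0.182 there.

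Irs1 was no longer called higher with 1 mean and SD over all probes, which left 0 members higher. Igfbp5 was called lower with the ratio alone or with the median and MAD, 1 member in each case (9.66% and 5.4% of all genes tested). The alternatives for the pathway lists were added after the data were seen. In these lists 2 of the 48 genes tested were lower with the ratio alone or with the median and MAD. With 1 mean and SD over all probes 0 were lower. Of all genes tested, 9.66%, 5.4% and 2.8% were lower in these settings, respectively. In the pathway lists 1 gene, Igfbpl1, was higher with the ratio alone, with 1 mean and SD, or without a filter (60 genes). Of all genes tested, 8.06% were higher with the ratio alone and 2.66% with 1 mean and SD. The share without a filter is not given here. No paired analysis was possible because control and CHIR99021 had only 1 array apiece. Spot error was larger at dim probes: the spot SD was 0.159 at a spike-in signal of 70.46 and 0.034 at 2667.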
